A study of Mus musculus with 16 samples.

Results

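The neutrophil granule genes are 10 genes taken by symbol from the 25054 genes of the count table, namely *Elane*, *Mpo*, *Prtn3*, *Camp*, *Ltf*, *Ngp*, *Lcn2*, *Chil3*, *S100a8* and *S100a9*. They were chosen by name and not by a measured value, and all 10 were found. RNA was measured in 16 mouse osteosarcomas, the malignant tumor of bone-forming cells. The 8 tumors labeled KO came from mice that carried Arid1afl/fl, and the 8 tumors labeled WT came from mice without it. Each KO sample has its own name, and each name was taken as 1 mouse. OsxCreERT2+/- with p53fl/fl and with Rb1fl/fl was common to both genotypes, controls included. Every mouse received 400 ug/g tamoxifen at 1 month of age and was older than 6 months, and both sexes were used without a sex given per tumor. The Cre is driven by *Osterix* regulatory sequence, which is active in the osteoblast lineage, and needs tamoxifen to act. By their codes the WT tumors came from 4 mice. Mouse N42 gave 4 tumors and N43 gave 2, while N215 and N25 gave 1 tumor apiece. A body site is given for the WT tumors only.

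Neutrophils are made in the bone marrow, and they fill their granules in a fixed order while they mature. *Elane* (neutrophil elastase), *Mpo* (myeloperoxidase) and *Prtn3* (proteinase 3) encode proteins of the primary, azurophil granules. These genes are transcribed in promyelocytes and shut off before the cell leaves the marrow, and they are called early here. *Camp* (the cathelicidin precursor), *Ltf* (lactoferrin), *Ngp* (neutrophilic granule protein), *Lcn2* (the siderophore-binding lipocalin) and *Chil3* (the chitinase-like protein Ym1) switch on later, at the stage of the specific granules, and are called late. *S100a8* and *S100a9* encode the subunits of calprotectin, a calcium-binding protein of the cytosol whose mRNA is still abundant in circulating neutrophils. *Lcn2* is also made by epithelia and *Chil3* by macrophages, including those of the lung.

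Several members lie close together in the genome (GRCm38, GENCODE vM21). *Prtn3* (chr10:79874476-79883174) and *Elane* (chr10:79886247-79888215) are on the plus strand with 3072 bases between them. *S100a8* (chr3:90668978-90670035, plus strand) and *S100a9* (chr3:90692632-90695721, minus strand) are 22596 bases apart, and *Chil3* is at chr3:106147554-106167564 on the minus strand. *Camp*, *Ngp* and *Ltf* lie on chromosome 9 at chr9:109847379-109849617, chr9:110419747-110423012 and chr9:111019271-111042767, *Mpo* at chr11:87793581-87804413 and *Lcn2* at chr2:32384633-32388252.

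Promoters of early and late members are shown side by side for the motifs they hold. The 250 bases before each RefSeq start (GRCm38.p6) were searched on both strands for TTNNGNAA, a core of C/EBP sites, and for GAGGAA, a core of PU.1 sites. C/EBP proteins and PU.1 are transcription factors of myeloid cells. Matches of the motifs may overlap, and the motifs were chosen after the values below were seen. All 3 early members held GAGGAA and 0 of the 3 held TTNNGNAA, whereas 6 of the 7 other members held TTNNGNAA and 3 of the 7 held GAGGAA. Among 32851 mouse promoters of the same length 36.8% held TTNNGNAA and 23.3% held GAGGAA. *Camp* held neither. A match of letters is a description of the sequence and not a site shown to be bound. Capitals mark the matches on either strand in the lines below, and each sequence is cut where the first GENCODE exon of its gene begins. *Elane* is from chr10:79886062-79886246, *Mpo* from chr11:87793534-87793580, *Prtn3* from chr10:79879417-79879613 (inside an intron of a longer GENCODE model), *Ltf* from chr9:111019042-111019270 and *Ngp* from chr9:110419558-110419746, all on the plus strand. *Chil3* is from chr3:106167565-106167814, shown on its own minus strand.
Elane: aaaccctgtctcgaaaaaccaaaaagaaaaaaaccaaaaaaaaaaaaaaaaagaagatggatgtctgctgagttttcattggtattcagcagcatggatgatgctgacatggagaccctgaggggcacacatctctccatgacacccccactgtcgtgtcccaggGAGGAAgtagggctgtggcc
Mpo: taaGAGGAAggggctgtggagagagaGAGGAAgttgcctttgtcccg
Prtn3: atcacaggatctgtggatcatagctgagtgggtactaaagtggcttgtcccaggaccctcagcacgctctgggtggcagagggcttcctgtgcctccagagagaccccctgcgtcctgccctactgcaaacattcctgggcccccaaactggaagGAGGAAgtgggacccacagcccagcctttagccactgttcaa
Ltf: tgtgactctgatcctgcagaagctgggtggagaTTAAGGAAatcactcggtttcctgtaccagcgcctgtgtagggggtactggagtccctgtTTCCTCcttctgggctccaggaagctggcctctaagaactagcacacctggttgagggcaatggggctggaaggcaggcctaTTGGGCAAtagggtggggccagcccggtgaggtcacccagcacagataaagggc
Ngp: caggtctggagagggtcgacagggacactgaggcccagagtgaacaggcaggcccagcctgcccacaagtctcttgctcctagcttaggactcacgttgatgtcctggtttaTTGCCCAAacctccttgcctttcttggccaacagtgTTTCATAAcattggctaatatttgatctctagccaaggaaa
Chil3: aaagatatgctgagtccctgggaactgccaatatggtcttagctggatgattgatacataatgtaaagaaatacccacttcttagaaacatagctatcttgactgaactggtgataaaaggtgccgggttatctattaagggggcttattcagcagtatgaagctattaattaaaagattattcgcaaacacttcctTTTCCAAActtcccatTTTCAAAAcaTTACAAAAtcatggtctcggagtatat

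Between 1109487 and 15059640 counts fell on genes in a KO tumor and between 7806160 and 16962329 in a WT tumor. Values are CPM, the counts scaled by the TMM-normalized library size of each tumor to a common total. A count of 3, taken here as the floor below which a 0 is not informative, is worth 6.69 CPM in Massa, 4.03 CPM in Grilka and 0.146 to 0.839 CPM in the other libraries. *Arid1a* had 107 to 270 CPM in KO and 125 to 236 CPM in WT (log2 fold change 0.16, SE 0.22, edgeR adjusted p = 0.715), but counts over the whole gene do not isolate the floxed exons and so do not check the labels. Some libraries stood apart by other tissues. The 7 lung genes summed to 28609 CPM in the WT tumor labeled lung (N25) and to 11150 CPM in the KO tumor Massa, against at most 17.3 CPM elsewhere. *Sftpc*, surfactant protein C of alveolar cells, had 1440 counts in Massa, whose label gives no site. The 6 epithelial genes summed to 1369 CPM in the KO tumor Prince, 587 CPM in the lung tumor and 350 CPM in Massa, against at most 28.2 CPM elsewhere. The 7 skeletal muscle genes summed to 117124 CPM in the KO tumor Oregon and 65613 CPM in the KO tumor Montana, against at most 6681 CPM elsewhere. *Col1a1*, the main collagen of bone, had 214 CPM in Prince, the lowest, to 47558 CPM.

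Granule gene RNA was concentrated in few tumors of either genotype. The 10 members summed to 572 CPM in the KO tumor Zelda (8438 counts), 306 CPM in the lung tumor (4747 counts) and 306 CPM in Massa, where that sum rests on 137 counts. Prince followed with 80.1 CPM, and the spine and pelvis tumors of N43 had 54.7 and 44.9 CPM. The other 10 tumors, 5 KO and 5 WT, held 3.05 to 24.2 CPM. In bulk RNA fewer neutrophils and less granule mRNA per neutrophil cannot be told apart.

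**Figure D1:**
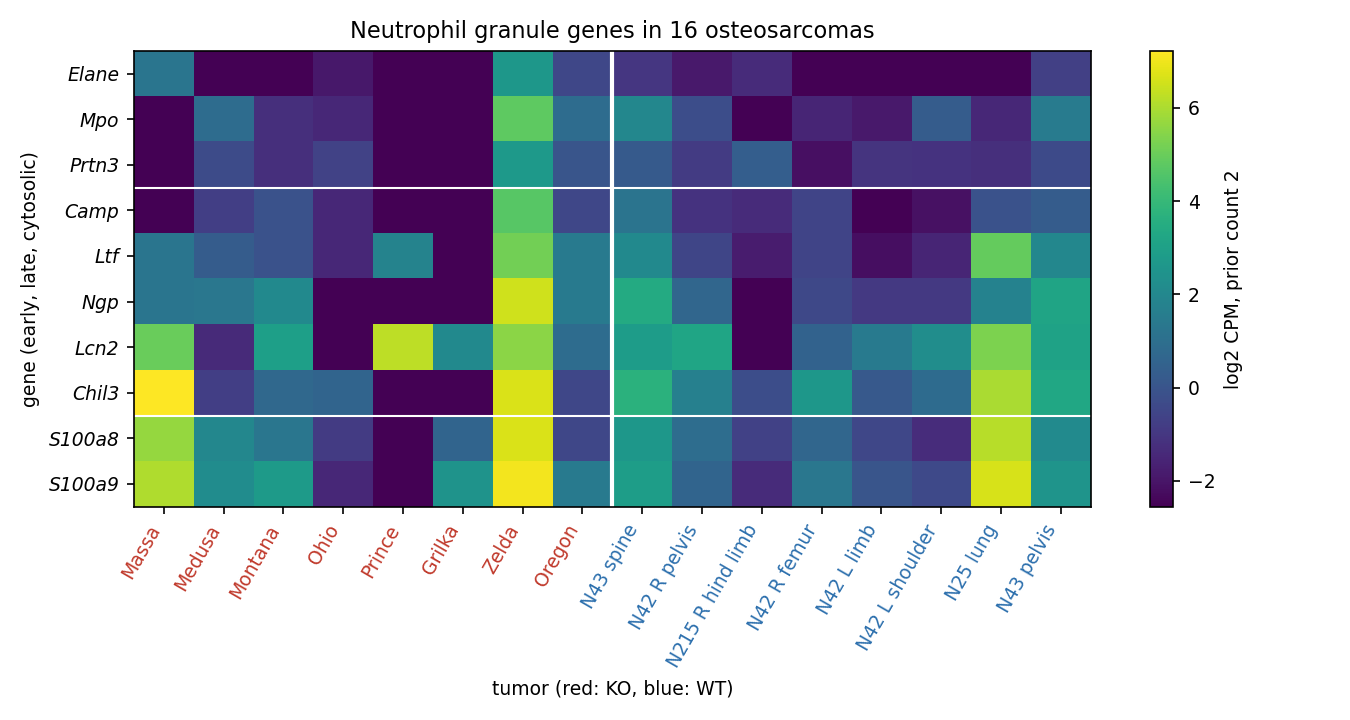
Level of each granule gene (rows) in each of the 16 tumors (columns, KO in red and WT in blue), as log2 CPM with a prior count of 2, white lines separating early, late and cytosolic genes. Zelda is high in all 10 rows, the lung tumor is high from *Ltf* downward with the exception of *Ngp*, and Prince is high in *Lcn2* and, less so, *Ltf*; in Massa a single count already gives 2.23 CPM.

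The early genes were near the floor in most tumors. *Elane*, whose product is a serine protease, had 89 counts in Zelda, 9 and 6 in the N43 pelvis and spine, and 0 to 2 in each of the other 13 tumors. *Mpo*, the enzyme that makes hypochlorous acid, had 403 counts in Zelda, 68 in the N43 spine, 54 in the N43 pelvis and 0 to 18 elsewhere. *Prtn3* had 95 counts in Zelda and 0 to 18 elsewhere. In CPM, Zelda had 6.04 of *Elane*, 27.3 of *Mpo* and 6.44 of *Prtn3*, and it held 67.7%, 87.8% and 74.5% of the summed CPM of the 8 KO tumors. Zelda thus lay above every other tumor for all 3, while the remaining KO tumors and the WT tumors overlapped. The KO medians were 0.0477, 0.223 and 0.366 CPM and the WT medians 0.0486, 0.437 and 0.346 CPM for *Elane*, *Mpo* and *Prtn3*. An exon of *Prtn3* overlaps *Plppr3* on the other strand, the strand used in counting is not given in the sources used here, and *Plppr3* was highest (18.1 CPM) in the N215 hind limb, the WT tumor with the highest *Prtn3* (1.13 CPM, 10 counts). *Mpo* likewise overlaps an antisense gene, *Gm11505*, which is not in the count table.

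The late genes fell into 2 patterns. *Camp* and *Ngp* followed the early genes. *Camp*, an antimicrobial peptide precursor, had 375 counts in Zelda, 39 and 21 in the N43 spine and pelvis, 12 in the lung tumor and 0 to 9 elsewhere. *Ngp* had 1338 counts in Zelda, 190 and 176 in the N43 spine and pelvis, 50 in the lung tumor and 0 to 29 elsewhere. Zelda and N43 had the highest counts of both, with the lung tumor next. In CPM *Ngp* reached 90.7 in Zelda, 10.4 and 8.82 in N43, 4.08 in the KO tumor Montana (16 counts) and 3.23 in the lung tumor. Its median was 2.28 CPM in KO and 0.989 CPM in WT.

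*Ltf*, *Lcn2* and *Chil3* were also high outside those tumors. *Ltf*, an iron-binding protein, had 35.5 CPM in Zelda and 29.8 CPM in the lung tumor (524 and 462 counts), 4.12 and 3.71 CPM in the N43 spine and pelvis, and at most 3.40 CPM elsewhere. *Lcn2* had 76.7 CPM in Prince, 45.8 in Zelda, 38.8 in the lung tumor and 31.2 in Massa, and 0 to 9.09 CPM elsewhere. *Chil3* had 149 CPM in Massa, on 67 counts, 101 CPM in Zelda and 63.9 CPM in the lung tumor, 12.6 and 9.58 CPM in the N43 spine and pelvis, and 0 to 5.91 CPM elsewhere. The tumors that were high in *Lcn2* and *Chil3* without being high in the early genes were those with the lung or epithelial genes described above, and the part of those cells in the values was not tested. In Prince 924 of the 965 counts of all 10 members were *Lcn2* and the other 41 were *Ltf*. The remaining 8 members were at 0 in Prince, which allows up to 0.249 CPM each. The leading KO tumor depended on the scaling for *Lcn2* and *Chil3*. With CPM of the total counts in place of the normalized library size, Zelda was highest in KO for all 10 members, with 67.3 CPM of *Lcn2* against 61.4 in Prince and with 148 CPM of *Chil3* against 60.4 in Massa. The normalized library size was 0.404 of the total in Massa and 1.47 of it in Zelda. *Chil4*, a close copy of *Chil3*, had no values that could be read from the count table, so reads that fit both could affect the *Chil3* values.

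**Figure D2:**
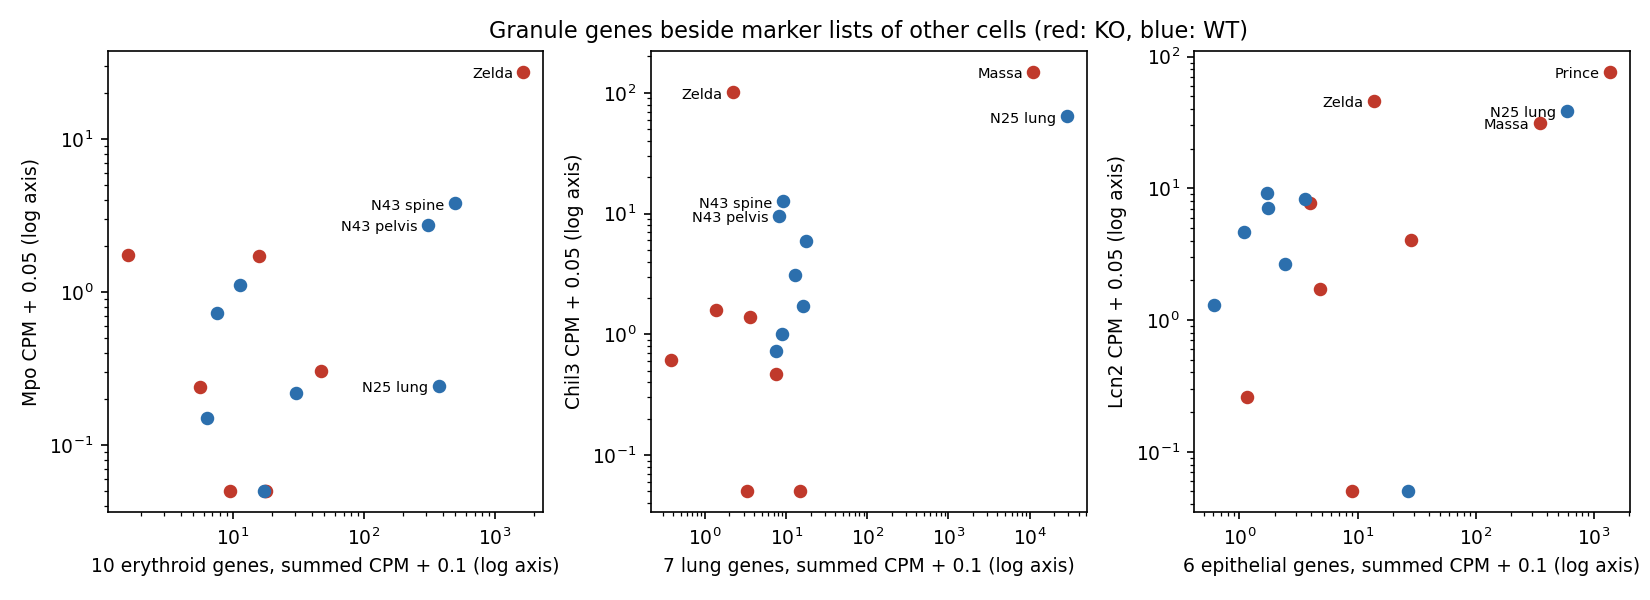
*Mpo*, *Chil3* and *Lcn2* (vertical axes, CPM + 0.05, log scale) against the summed CPM + 0.1 of a marker list (horizontal axes, log scale) in the 16 tumors, KO in red and WT in blue. *Mpo* is highest in Zelda and the N43 tumors, which also have 309 to 1651 CPM of erythroid genes, but it is 0.194 CPM in the lung tumor with 374 CPM of erythroid genes; *Chil3* is high in the pair of tumors with lung genes and in Zelda, and *Lcn2* in the 3 tumors with the most epithelial RNA and in Zelda.

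The calprotectin genes were high in Zelda, the lung tumor and Massa, and both had 0 counts in Prince. *S100a9* had 133 CPM in Zelda, 98.3 in the lung tumor and 66.9 in Massa, and *S100a8* had 101, 71.1 and 51.3 CPM in the same order. The other 13 tumors had 0 to 7.20 CPM of *S100a9* and 0 to 6.04 CPM of *S100a8*. *S100a8* made up 43.04% of the *S100a8* and *S100a9* counts in Zelda (95% exact binomial interval 41.4 to 44.7, of 3455), 41.98% in the lung tumor (40.1 to 43.9, of 2625), 45.6% in the N43 spine (39.2 to 52.2, of 241) and 43.01% in the N43 pelvis (35.9 to 50.3, of 193). The intervals of these 4 tumors overlapped. Such intervals cover counting error only, since reads without molecular identifiers are not independent molecules.

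Per kilobase of exon the order of the members was alike in Zelda and the N43 spine. In Zelda *S100a9* led with 256 CPM per kb, followed by *S100a8* (145), *Ngp* (74.3), *Chil3* (61.7), *Camp* (33.6), *Lcn2* (17.5), *Ltf* (10.3), *Mpo* (7.98), *Elane* (6.13) and *Prtn3* (3.72). The N43 spine tumor kept this order down to *Mpo*, from 13.8 CPM per kb of *S100a9* through 8.54 of *Ngp* to 1.09 of *Mpo*, though *S100a8*, *Ngp* and *Chil3* (8.71, 8.54 and 7.71 CPM per kb) were close together there. The order differed more in the N43 pelvis, where *Ngp* (7.22 CPM per kb) came before *S100a8* (6.00) and *Lcn2* (3.15) before *Camp* (1.39). In the lung tumor *S100a9* (188) and *S100a8* (102) also led, but *Chil3* (39.2), *Lcn2* (14.8) and *Ltf* (8.64) came before *Ngp* (2.64) and *Camp* (1.02), and the early genes were at 0 to 0.149 CPM per kb.

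The balance of early and late genes was measured as the share of early counts among the counts of the 3 early and 5 late genes. In Zelda it was 11.8% (587 of 4983 counts, 95% exact binomial interval 10.9 to 12.7), in the N43 spine 12.2% (92 of 754, 9.95 to 14.8) and in the N43 pelvis 10.7% (75 of 702, 8.50 to 13.2). These 3 tumors, of both genotypes, had overlapping intervals although the summed level of the members was 10.5 to 12.8 times higher in Zelda. In the lung tumor the share was 0.330% (7 of 2122, 0.133 to 0.678), and in Prince it was 0 of 965 counts, which allows a share of up to 0.382%. Massa, the other tumor with lung genes, had 1.19% (1 of 84, 0.0301 to 6.46). The intervals of all 3 lay below those of Zelda and N43. In the 4 tumors of N42 the share was 2.53% to 16.5%, on 87 to 320 counts. The lowest of them, the N42 femur (4 of 158, 0.694 to 6.35), also had an interval below those of Zelda and N43. The remaining tumors had 60 counts or fewer, and their shares, from 0 of 3 counts in Grilka to 57.1% (12 of 21, 34.0 to 78.2) in the N215 hind limb, are correspondingly imprecise.

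**Figure D3:**
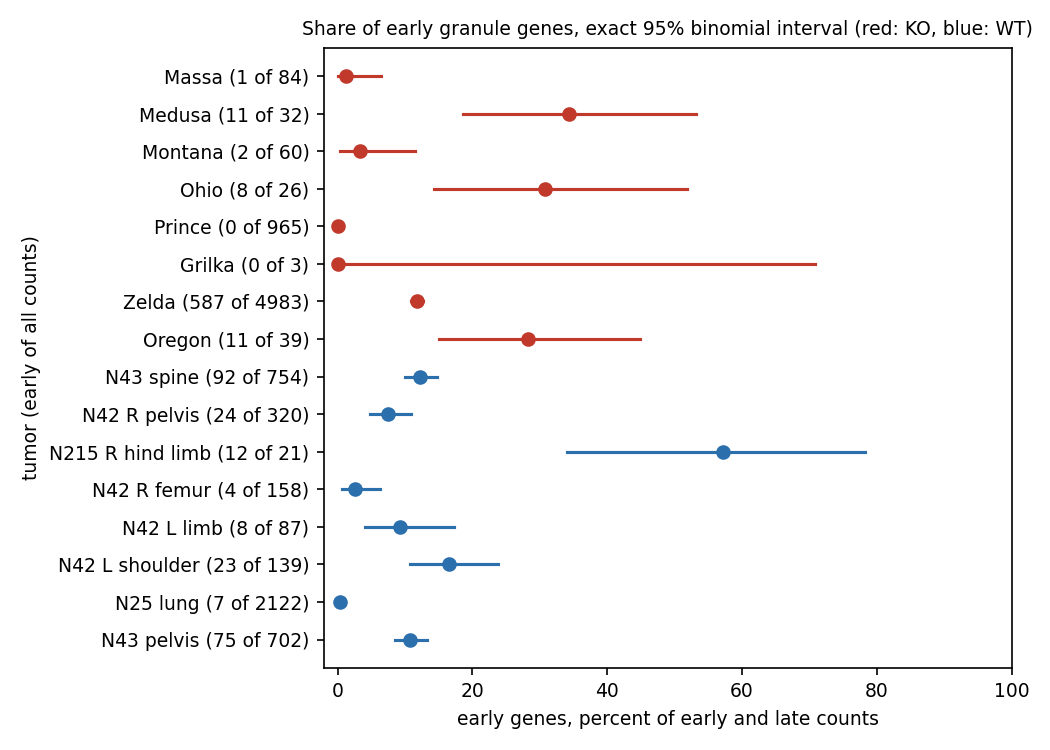
Share of early genes among early and late counts (horizontal axis, percent) in each tumor, with 95% exact binomial intervals; KO in red, WT in blue, counts in parentheses. Zelda and both N43 tumors lie together at 10.7% to 12.2%, the lung tumor and Prince lie below 1%, Massa at 1.19% and the N42 femur at 2.53%, and tumors with few counts have wide intervals. The intervals of Medusa, Oregon and the N215 hind limb lie above those of Zelda and N43.

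Leaving *Lcn2* and *Chil3* out of the share kept the lung tumor and Prince below Zelda and N43, but not Massa. With *Camp*, *Ltf* and *Ngp* as the late genes, the early share was 20.8% in Zelda (19.3 to 22.3), 23.2% in the N43 spine (19.2 to 27.7), 21.7% in the N43 pelvis (17.4 to 26.4) and 1.32% in the lung tumor (0.532 to 2.70, 7 of 531 counts). Prince had 0 of 41 counts, which allows up to 8.60%. Massa was left with 1 of 3 counts (33.3%, 0.840 to 90.6), too few to place it. The interval of the N42 femur (12.5%, 3.51 to 29.0, 4 of 32) overlapped those of Zelda and N43. The N42 shoulder (69.7%, 51.3 to 84.4, 23 of 33), Ohio (66.7%, 34.9 to 90.1, 8 of 12) and the N215 hind limb (80%, 51.9 to 95.7, 12 of 15) had intervals above those of Zelda and N43. The N42 pelvis (34.3%, 23.3 to 46.6, 24 of 70) and the N42 limb (50%, 24.7 to 75.3, 8 of 16) lay above Zelda but overlapped N43. As a description of a pair of genes chosen after their values were seen, *Ngp* made up 47.4% of the *Ngp* and *S100a8* counts in Zelda (45.5 to 49.2), 63.3% in the N43 spine (57.6 to 68.8) and 68.0% in the N43 pelvis (61.9 to 73.6), but 4.34% in the lung tumor (3.24 to 5.68) and 4.17% in Massa (1 of 24 counts, 0.105 to 21.1). On the log2 scale the mean of the early minus the mean of the late genes was −1.63 ± 1.41 (SD, n = 8) in KO and −1.91 ± 1.69 (SD, n = 8) in WT, a difference of 0.28 that is smaller than the spread between tumors. The lung tumor had the lowest value, −5.32.

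**Figure D4:**
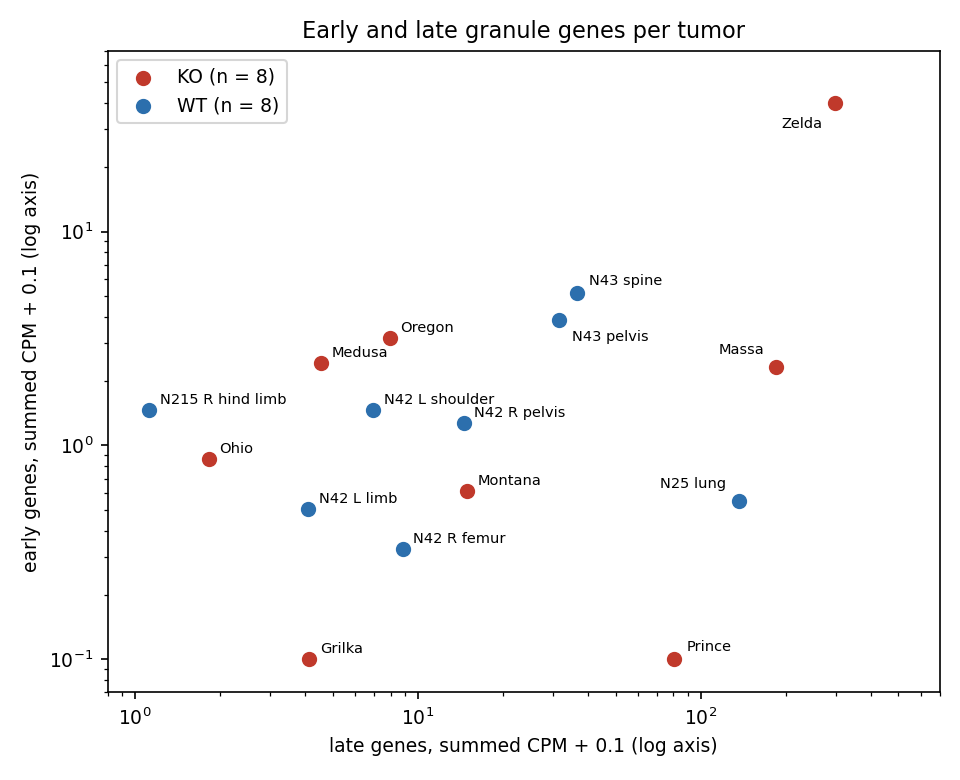
Summed CPM + 0.1 of the 3 early genes (vertical axis, log scale) against that of the 5 late genes (horizontal axis, log scale) for each tumor, KO in red and WT in blue. Zelda and the N43 tumors are high on both axes, while the lung tumor and Prince have 137 and 80.1 CPM of late genes but 0.452 and 0 CPM of early genes.

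Other genes of the same cells were read from lists of the neutrophil program and of marrow cells. The 6 other early granule genes were highest in Prince and Zelda. *Serpinb1a*, an inhibitor of the neutrophil proteases that other cells also express, made up 106 CPM in Prince and 43.2 CPM in Zelda, whereas *Ctsg* (cathepsin G of azurophil granules) had 105 counts in Zelda, 12 and 9 in N43, 3 in the lung tumor and 0 to 2 elsewhere. *Ms4a3*, a gene of granulocyte progenitors, had 72 counts in Zelda and 0 to 4 elsewhere. *Cxcr2*, the receptor of mature neutrophils for CXC chemokines, had 280 counts in the lung tumor, 71 in Zelda, 2 and 8 in N43 and 0 to 8 elsewhere. *Cxcr2* was named after its values were seen. *Csf3r*, the receptor for G-CSF, had 1.66 to 55.8 CPM and was highest in the lung tumor.

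Markers of other marrow cells were also high in some of these tumors, and their part in the values was not tested. The 10 erythroid genes in the table, of 14 listed, summed to 1651 CPM in Zelda, 496 and 309 CPM in the N43 spine and pelvis and 374 CPM in the lung tumor, against 1.48 to 47.4 CPM elsewhere. *Slc4a1*, the anion exchanger of red cells, had 680 CPM in Zelda, and *Hbb-bs*, an adult beta globin, had 336 CPM there. From a list meant for B cell precursors, the 5 genes in the table, of 9 listed, summed to 283 CPM in Zelda. They summed to 52.0 CPM in the lung tumor and at most 9.98 CPM elsewhere, with 0.659 and 1.35 CPM in the N43 spine and pelvis. In Zelda *Pax5* (126 CPM), *Cd79b* (84.8 CPM) and *Cd79a* (69.9 CPM) led, while *Vpreb3* had 1.42 CPM. *Vpreb1*, *Igll1*, *Rag1* and *Rag2* were listed but not in the table, so the sum does not give the stage of the B cells. The 5 megakaryocyte genes summed to 86.1 CPM in Zelda, 52.9 CPM in the lung tumor and 5.37 to 27.7 CPM in the others, N43 included. *Ppbp*, the platelet chemokine CXCL7, had 88.7 CPM in Zelda and 51.3 CPM in the lung tumor. Of the chemokines that draw neutrophils, *Cxcl1* and *Cxcl2* were at 0 to 2.98 CPM in every tumor.

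Whether the granule genes differed between genotypes was asked with edgeR over all genes. Of 15413 genes tested, 618 (4.01%) differed between KO and WT at an adjusted p under 0.05. Of the 10 members 5 passed the filter on low counts, *Ngp*, *Lcn2*, *Chil3*, *S100a8* and *S100a9*, and 0 of the 5 were called by edgeR, with 0 at an unadjusted p under 0.05 and 0 of 10 called by DESeq2, which called 12.5% of all genes. As a log2 fold change of KO over WT, *Ngp* had 2.075 (SE 1.31, edgeR adjusted p = 0.358). *Lcn2* had 1.23 (SE 1.12, edgeR adjusted p = 0.545) and *Chil3* had 1.30 (SE 1.35, edgeR adjusted p = 0.605). *S100a8* and *S100a9* had 0.88 and 0.90 (SE 1.35 and 1.34, edgeR adjusted p = 0.743 and 0.736). Their median was 1.23 beside 0.0969 over all genes tested. The groups overlapped for each of the 5, and the largest KO values were those of Zelda, Massa and Prince. The 5 members that did not pass the filter, the 3 early genes with *Camp* and *Ltf*, are accounted for by a fit with no filter, in which all 10 estimates were positive, 0 of 10 were called by edgeR (2.71% of 25054 genes were), and *Elane*, alone among the members at an unadjusted p under 0.05, had an estimate of 2.97 (edgeR unadjusted p = 0.0313, adjusted p = 0.175). DESeq2 gave 5 members a positive and 5 a negative estimate, with *Chil3* at −1.92 (adjusted p = 0.0902) and *S100a9* at 2.07 (adjusted p = 0.153). These 2 were the members with a DESeq2 unadjusted p under 0.05.

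The direction of the genotype comparison depended on single tumors for the median and for *Ngp*, *S100a8* and *S100a9*. Without Zelda edgeR tested 6 members and called 0 of them, with 0 at an unadjusted p under 0.05 (8.52% of all genes were called), and the estimates were −1.01 for *Ngp*, −1.70 for *Ltf*, −0.73 for *S100a8* and −0.52 for *S100a9*, with 0.94 for *Lcn2* and 0.61 for *Chil3*. The median turned to −0.63. Without the lung tumor it was 2.61, without Massa 0.60, and without both Zelda and the lung tumor, an alternative added after the data were seen, it was 1.93 over 4 members, 0 of which were called by edgeR or had an unadjusted p under 0.05 (10.7% of all genes were called). No direction thus held across the tumors left out for the members as a set. *Lcn2* (0.49 to 2.15) and *Chil3* (0.32 to 2.61) stayed positive with each single tumor left out, and neither was called. *Chil3* was negative with DESeq2 and with limma-voom.

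**Figure D5:**
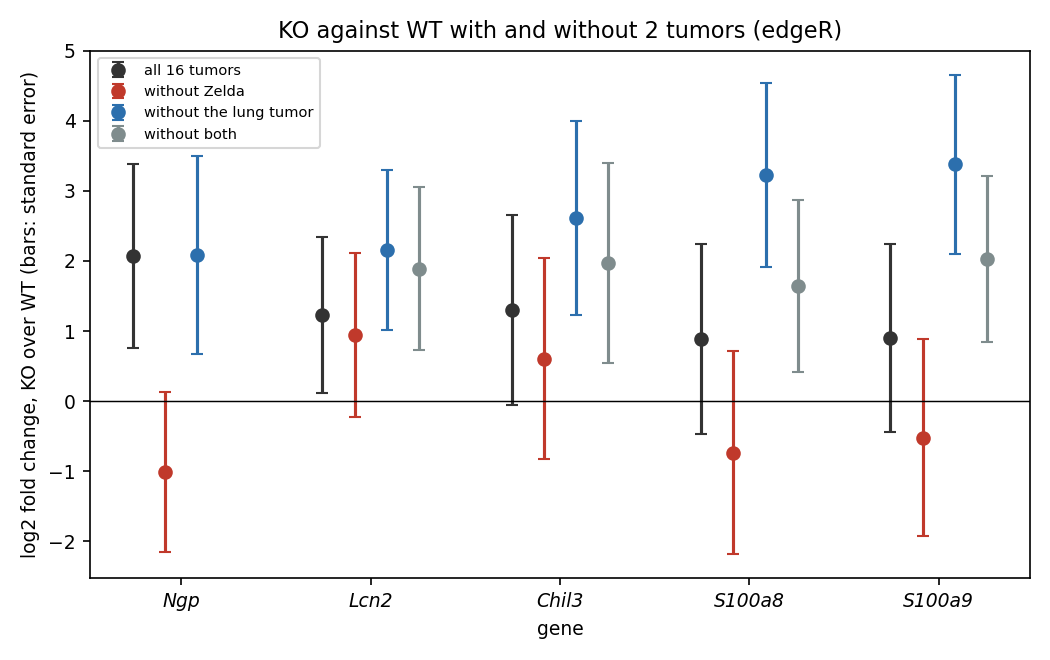
Log2 fold change of KO over WT (vertical axis, edgeR, bars are standard errors) for the 5 members that passed the filter, with all 16 tumors, without Zelda, without the lung tumor and without both. *Ngp*, *S100a8* and *S100a9* lie above 0 with all tumors and below 0 without Zelda; *Ngp* did not pass the filter without both, so it has no point there.

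Other lists of the neutrophil program were read in the same comparison. Of the 14 other late granule genes 4 were tested, all with negative estimates, and 0 were called by edgeR (1 at an unadjusted p under 0.05, 1 of the 14 called by DESeq2, which is higher in KO, median −1.38). *Mmp9*, gelatinase B, which osteoclasts also make in quantity, had 2.23 to 791 CPM in KO and 5.10 to 4573 CPM in WT, and *Hp*, haptoglobin, was highest in the lung tumor with 803 CPM. Of 12 receptors of mature neutrophils 7 were tested and 1 was called lower in KO (2.15% of all genes were), *Clec4d*, a C-type lectin that macrophages also carry (log2 fold change −4.90, SE 0.87, edgeR adjusted p = 0.00899). In this list 4 of the 7 had an unadjusted p under 0.05, DESeq2 called 3 of 12 lower, and without Zelda edgeR called 3 of 7 lower, adding *Trem1* (−4.48, edgeR adjusted p = 0.0214) and *Ccr1* (−2.52, edgeR adjusted p = 0.0405). Of the 5 NADPH oxidase genes, which phagocytes use for the oxidative burst, 0 were called by edgeR (1 at an unadjusted p under 0.05, 2 called lower by DESeq2, median −0.56). Without Zelda edgeR called 2 of the 5 lower, *Cybb* (−1.69, adjusted p = 0.0125) and *Cyba* (−1.46, adjusted p = 0.0204). Of the 5 granulocyte transcription factors 3 were tested and 0 called by edgeR (0 at an unadjusted p under 0.05, 0 called by DESeq2, median −0.57). Macrophage genes were lower in KO beside these lists, with 8 of 10 tested called, all lower, and a median of −2.16. *Mrc1*, the mannose receptor, had a log2 fold change of −2.33 (SE 0.39, edgeR adjusted p = 0.00530). The 8 WT tumors came from 4 mice, and in the fits that allow for this, limma-voom with a random effect of mouse and edgeR on counts summed per mouse, all 10 macrophage genes had negative estimates and 8 an unadjusted p under 0.05, but 0 were called. *Clec4d* was not called there either (limma-voom adjusted p = 0.212, edgeR per mouse adjusted p = 0.266), and 0 of the 7 receptors tested were called in either fit. No such fit was run without Zelda, so the calls of *Trem1*, *Ccr1*, *Cybb* and *Cyba* do not allow for the shared mice. The summed macrophage genes were at 129 to 559 CPM in KO and 330 to 1930 CPM in WT, and their part in the values of the shared myeloid genes was not tested.

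Within WT, the tumors of the axial skeleton (N43 spine, N43 pelvis and N42 right pelvis) were compared with those of the limbs and shoulder girdle (4 tumors), leaving out the lung tumor. The pelvis was placed with the spine by choice, and N43 gave only axial tumors. *Ngp* had 10.4 and 8.82 CPM in the N43 spine and pelvis and 1.41 CPM in the N42 pelvis, against 0.568, 0.354 and 0.354 CPM in the N42 femur, shoulder and limb and 0 in the N215 hind limb. The groups did not overlap. *S100a8* had 6.04, 4.16 and 1.75 CPM in the axial tumors and 0.236 to 1.42 CPM in the others, again without overlap, and *Ltf* had 4.12, 3.71 and 0.535 CPM against 0.0505 to 0.511 CPM, which at the boundary is 11 against 9 counts. *Lcn2* had 7.09 to 9.09 CPM against 0 to 4.61 CPM, so 4 of the 10 members lay higher in the axial tumors with no overlap. *Ltf* did not pass the filter on low counts. Of the 17131 genes that did, 2.71% lay higher in the axial tumors with no overlap, 2.12% lay lower, and edgeR called 0%. *Mpo* had 3.74, 2.71 and 0.681 CPM against 0 to 1.06 CPM, and *Chil3* 12.6, 9.58 and 3.06 CPM against 0.681 to 5.91 CPM, so that these groups overlapped.

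edgeR tested 17131 genes between axial and appendicular tumors and called 0, with 641 at an unadjusted p under 0.05 and 31 called by DESeq2. Of the members 7 were tested, all with positive estimates and 0 called by edgeR (5 at an unadjusted p under 0.05, median 2.20 beside −0.0076 over all genes). *Ngp* had a log2 fold change of 4.33 (SE 0.91, edgeR unadjusted p = 0.00144, adjusted p = 0.974) and *S100a8* of 2.57 (SE 0.68, unadjusted p = 0.00534, adjusted p = 0.974). *Mpo* (2.75), *S100a9* (2.20) and *Chil3* (1.87) also had an unadjusted p under 0.05 in edgeR, and *Lcn2* (1.93) and *Prtn3* (0.70) did not. DESeq2 called 31 genes (0.166%), and *Ngp* was among them (4.35, SE 0.87, DESeq2 adjusted p = 0.00173). With the mouse as a term, which leaves the N42 tumors as the comparison, edgeR called 0 genes (375 at an unadjusted p under 0.05), and the estimates of the 7 members were all positive, and smaller than without it for 6 of the 7: 1.72 for *Ngp* (SE 0.48, unadjusted p = 0.0115), 1.69 for *Lcn2*, 1.25 for *S100a8*, 0.81 for *Prtn3*, 0.64 for *Mpo* and 0.12 each for *Chil3* and *S100a9*. The erythroid genes were also higher in the axial tumors, with 4 tested, all at an unadjusted p under 0.05, a median of 3.87, 0 called by edgeR and 2 by DESeq2, and their median was −1.22 with the mouse as a term. Mouse and site can therefore be told apart only within N42, where 1 axial tumor stands against 3 others.

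For *Elane* and *S100a8*, the genes with the most similar level over the 16 tumors were sought among the 15413 tested, by Pearson r of log2 CPM. The points share the depth of their libraries, and the shallow library Massa gives a single count of *Elane* a high CPM. For *Elane* they were *Abcg4* (0.80), *Tnfrsf14* (0.80), *Nt5c3* (0.77), *Serpinc1* (0.77) and *Slc30a9* (0.77). For *S100a8* they included *Lrrk2* (0.88), *Traf1* (0.88), *Sp4* (0.82) and *Tmsb4x* (0.82). Among the members *S100a8* was most like *S100a9* (0.96) and *Chil3* (0.87), and less like *Ngp* (0.76), *Elane* (0.61) and *Prtn3* (0.31).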

How the data were processed

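RNA-seq counts of 16 osteosarcomas were analyzed. Total RNA was depleted of ribosomal RNA (RiboZero), made into TruSeq libraries and sequenced for 50 cycles from one end. The authors aligned the reads with Novoalign 2.08.01 to mm10 with Ensembl build 74 splice junctions, allowing up to 50 alignments per read and keeping the best, and deposited raw counts per gene; the strand is not given in the sources used here. The smallest gene total is 6, so rarer genes are not in the table. Groups came from the labels, and tumors sharing an animal code were taken as 1 mouse. Whether tumors of 1 mouse are independent is not known, so p-values may measure partly technical or within-animal spread.

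edgeR 4.0.16 (R 4.3.3; TMM, filterByExpr with minimum count 10 and minimum total 15, quasi-likelihood test, two-sided, Benjamini-Hochberg over all genes tested, threshold 0.05) was used with no covariate. CPM used the TMM-normalized library size, and log2 CPM a prior count of 2. DESeq2 1.42.0, limma 3.58.1 (voom, mouse as a random effect), RLE normalization, no filter, sums per mouse and leaving out tumors were alternatives. Values under RLE and total-count scaling, the motif search and the pair *Ngp* and *S100a8* were added after seeing the data. The fits were tested on simulated data. Intervals are exact binomial at 95%. Positions come from GENCODE vM21, in which 24974 of 25054 gene identifiers (99.7%) were found, and promoters from RefSeq GRCm38.p6, in which all 10 members matched.

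The members and lists were chosen with earlier results of these data known. Named genes are the members, *Arid1a*, at most the 4 most abundant genes of each list, list genes past the threshold, and the 5 genes most like *Elane* and *S100a8*. Listed B cell genes that were not in the table are also named. Not every gene named by these criteria is reported here. The lists of muscle, eosinophil and basophil and alveolar macrophage genes had 0 genes called between KO and WT by edgeR (0 at an unadjusted p under 0.05, 0 by DESeq2). For the osteoblast list and the lists shown for their levels only, edgeR called 0 genes. DESeq2 called 3 of 8 osteoblast genes lower in KO and 4 of 6 epithelial genes higher. It also called 1 erythroid, 1 lung and 1 neutrophil chemoattractant gene lower and 1 other early granule gene higher. In edgeR 3 osteoblast genes and 1 other early granule gene had an unadjusted p under 0.05. Without Zelda edgeR called 1 erythroid gene lower.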

Additional observations from a re-analysis of the deposited data

Results flagged for a closer look

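In each group of 8 tumors the highest and lowest CPM of each of the 10 members, and of the early minus late value on the log2 scale, were set against the spread of the others (Dixon's ratio at its 95% limit). Of 22 groups tested, chance alone would mark about 1 in 20 if the values were normally distributed. The CPM were skewed, as for *Elane* in KO with a median of 0.0477 and a highest value of 6.04 CPM. The rate of marks by chance is therefore not known here, and the marks are a description only. The KO tumor Zelda stood apart in 6 genes, with 6.04 CPM of *Elane*, 27.3 of *Mpo*, 6.44 of *Prtn3*, 25.4 of *Camp*, 35.5 of *Ltf* and 90.7 of *Ngp*. The WT tumor labeled lung stood apart in 5 genes, with 29.8 CPM of *Ltf*, 38.8 of *Lcn2*, 63.9 of *Chil3*, 71.1 of *S100a8* and 98.3 of *S100a9*. The genes come from the same libraries, so these are 2 tumors and not 11 separate events.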

How the results depend on the processing

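No paired analysis was possible because KO and WT tumors came from different mice. The count of 618 genes called between KO and WT was 2517 with DESeq2, 17 with limma-voom and the mouse as a random effect, 10 with counts summed per mouse, 8 without mouse N42 and 1633 without Zelda and the lung tumor. Leaving out single tumors gave 252 (without the N42 shoulder) to 1348 (without Zelda); it fell to between 252 and 371 without Oregon or any WT tumor other than N215 and the lung tumor, and was 964 without Massa. The members' median of 1.23 was −0.11 with DESeq2, −0.35 with limma-voom, 0.38 per mouse, 0.52 without N42, 2.61 without the lung tumor and 1.93 without Zelda and the lung tumor, and −0.63 to 2.61 over single tumors left out. Signs turned for *Ngp* (DESeq2 −0.98, without Zelda −1.01), *Chil3* (DESeq2 −1.92, limma-voom −1.65), *S100a8* (limma-voom −0.66, without Zelda −0.73) and *S100a9* (limma-voom −0.35, without Zelda −0.52). No alternative called any of the 5 members tested between KO and WT; adjusted p ranged from 0.0902 to 0.999. Between axial and appendicular tumors DESeq2 called 31 genes and edgeR 0 without each tumor in turn; *Ngp* had an adjusted p of 0.00173 with DESeq2 and up to 1 otherwise. Between KO and WT with single tumors left out *Ngp* ranged from −1.01 to 2.64, *S100a8* from −0.73 to 3.23 and *S100a9* from −0.52 to 3.38, highest without the N43 spine for *Ngp* and without the lung tumor for the other two. The early minus late difference of 0.28 was −0.21 to 0.63. The cause of these changes was not tested. Depth limits the early genes most: a 0 in Massa or Grilka allows 6.69 or 4.03 CPM.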
